A study of Mus musculus with 12 samples.

Results

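The 10 genes described here are Tslp and 9 genes of the interleukin-1 family: the ligand genes Il33, Il1a, Il1b and Il18, the antagonist gene Il1rn, and the receptor chain genes Il1r1, Il1rap, Il1rl1 and Il18rap. They were chosen by gene symbol from the 55335 genes of a raw read count table. Gene expression was measured by RNA sequencing of polyadenylated RNA in PYMT-R221A cells, a cultured epithelial line from mammary tumours of mice with a polyoma middle T transgene, and the only line used. The 12 libraries formed 4 groups of 3: control cells, cells treated with 40 µM KCC-07, cells transfected with a scramble siRNA and cells transfected with an siRNA against Mbd2 (siMBD2). KCC-07 is named in the series as a small-molecule inhibitor of the pathway of MBD2, a protein that binds methylated CpG and recruits a chromatin-remodelling complex. A batch tag in the labels numbers the libraries as biological replicates from 1 to 3. No vehicle, treatment time or siRNA dose is given in the sources used here, so an effect of a vehicle on the KCC-07 values was not tested.

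TSLP is a cytokine released by epithelial cells. It signals through a receptor built from CRLF2 and the IL-7 receptor alpha chain, and it is best known for acting on dendritic cells and type 2 lymphocytes at barrier surfaces. The interleukin-1 family ligands IL-1 alpha, IL-1 beta and IL-33 each bind a chain of their own (IL1R1 for the IL-1 cytokines, IL1RL1, also called ST2, for IL-33) and then recruit a shared chain, IL1RAP, which starts MYD88 and NF-kB signalling. IL-18 uses a separate pair, IL18R1 and IL18RAP, while the product of Il1rn occupies IL1R1 without signalling. IL-1 alpha and IL-33 are alarmins of epithelial cells, whereas IL-1 beta and IL-18 are made as precursors that caspase-1 cleaves.

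Library totals ran from 25.8 to 34 M counts, and 14935 genes passed the filter on low counts, 9 of the 10 members among them. The libraries of replicate 3 stood apart in every group: mitochondrially encoded transcripts took 2.70% to 3.90% of their counts, against 1.45% to 2.32% in the other libraries. Mbd2 itself fell with siMBD2 to a fold of 0.436 (edgeR quasi-likelihood test, Benjamini-Hochberg adjusted p = 0.000197) and was at a fold of 0.998 with KCC-07 (adjusted p = 0.991). The 6 epithelial markers summed to 1120 to 1280 CPM (counts relative to the TMM-scaled library size) in control libraries and 1350 to 1390 CPM with KCC-07. With scramble and siMBD2 they summed to 1350 to 1410 CPM and 1250 to 1390 CPM. Of the 6, 5 rose with KCC-07, as did 3.58% of all genes. Among markers of other cells, Cd53, Adgre1, Nkg7, Ms4a1, Cpa3, Ms4a2 and Cdh5 had no count in any library, and Ptprc, which marks all leukocytes, had at most 3 counts. All counts of Ptprc, 6 in total, were in KCC-07 libraries. The mast cell marker Kit and the endothelial marker Pecam1 were present in all 12 libraries, at 8.05 to 40.6 CPM and 0.701 to 6.48 CPM. The mast cell list, carried by Kit, summed to 21.2 to 40.6 CPM in the siRNA groups and 8.08 to 18.9 CPM in the other groups, and the endothelial list to 2.66 to 4.16 CPM in control, 1.15 to 6.58 CPM with KCC-07 and 0.829 to 1.86 CPM in the siRNA groups. The 4 macrophage markers summed to 3.10 to 5.20 CPM in control, 7.51 to 9.14 CPM with KCC-07, 2.37 to 3.60 CPM with scramble and 2.52 to 2.79 CPM with siMBD2, a sum carried by Csf1r and Cd68. The fibroblast markers summed to 170 to 203 CPM in control and 99.9 to 152 CPM with KCC-07. With scramble and siMBD2 they summed to 140 to 144 CPM and 138 to 156 CPM. That sum was carried by Pdgfra, at 69.6 to 160 CPM over all libraries, and Col1a1, at 18.2 to 51.5 CPM, while Dcn and Lum had no more than 5 and 2 counts. The part that these shifts have in the members' values was not tested beyond these levels.

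Positions of the members are from the GENCODE annotation of GRCm38.p6. The receptor genes Il1r1 (chromosome 1, from 40225080 to 40317257), Il1rl1 (from 40429570 to 40465415) and Il18rap (from 40515362 to 40551705) stand in 1 cluster on the plus strand, with Il18r1 between the last 2. Chromosome 2 holds Il1rn (from 24336853 to 24351494), Il1a (from 129299610 to 129309972) and Il1b (from 129364570 to 129371139). Il1rap lies on chromosome 16 from 26581704 to 26730117, Il18 on chromosome 9 from 50554827 to 50581840 and Il33 on chromosome 19 from 29925114 to 29960718. Exons of Il1a, Il1b and Il1rap overlap genes annotated on the opposite strand, but those genes had at most 6, 2 and 1 counts in any library. Without overlap of exons, Bco2 and Tex12 lie opposite Il18, at no more than 16 and 2 counts. Tslp likewise has 4930455D15Rik on its opposite strand, a symbol absent from the count table.

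Because the protein named in the study binds methylated CpG, the promoters of the members were read for CpG content. Methylation itself was not measured here. The RefSeq table for GRCm38.p6 has 14 promoter windows of 300 bases for 9 members and none for Tslp, whose promoter was therefore not read. The 250 bases upstream of the start are printed for Il1rap, which carries the most CpG, and for Il1a, Il18rap and Il1rl1, the members with a window whose fitted fold changes with KCC-07 were the largest, with every CpG in capitals and the rest in lower case. The windows are chr16:26581455-26581704 on the plus strand for Il1rap, chr1:40515112-40515361 on the plus strand for Il18rap, chr1:40429320-40429569 on the plus strand for Il1rl1 and chr2:129309973-129310222 on the minus strand for Il1a.
Il1rap: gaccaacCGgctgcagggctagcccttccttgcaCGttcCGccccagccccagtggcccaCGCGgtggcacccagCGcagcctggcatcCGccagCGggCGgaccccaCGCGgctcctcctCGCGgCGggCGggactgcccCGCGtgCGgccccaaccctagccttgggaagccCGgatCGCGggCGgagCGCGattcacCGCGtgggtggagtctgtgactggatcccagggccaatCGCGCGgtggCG
Il18rap: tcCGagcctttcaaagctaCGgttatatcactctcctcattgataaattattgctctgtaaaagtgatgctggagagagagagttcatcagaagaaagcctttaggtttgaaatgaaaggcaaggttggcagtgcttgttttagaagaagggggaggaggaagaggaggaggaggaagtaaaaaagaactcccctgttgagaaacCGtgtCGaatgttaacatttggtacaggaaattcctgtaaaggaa
Il1rl1: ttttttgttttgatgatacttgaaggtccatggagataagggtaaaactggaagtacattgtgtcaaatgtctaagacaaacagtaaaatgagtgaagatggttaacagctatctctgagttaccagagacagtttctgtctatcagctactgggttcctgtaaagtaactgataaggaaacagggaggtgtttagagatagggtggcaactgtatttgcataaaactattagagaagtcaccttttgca
Il1a: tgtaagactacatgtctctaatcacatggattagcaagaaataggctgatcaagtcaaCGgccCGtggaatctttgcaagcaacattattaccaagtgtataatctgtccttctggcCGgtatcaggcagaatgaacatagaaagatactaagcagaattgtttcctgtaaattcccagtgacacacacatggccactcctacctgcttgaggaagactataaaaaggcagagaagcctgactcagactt
The printed stretches hold 30 CpG for Il1rap, 4 for Il18rap, 0 for Il1rl1 and 3 for Il1a. Over the whole window of 300 bases, Il1rap had 33 CpG, and 91.4% of all 32851 promoters in the table had fewer. The median promoter had 7. The other members with a window had 1 to 6 CpG in each, apart from a second Il1r1 start with 14. The motifs named next were searched on both strands of the windows. The letters TATAAA were found in 6 of the 14 windows (in Il1rn, Il1a, Il1b, Il18 and both Il33 windows), compared with 13.6% of all promoters. The AP-1 letters TGANTCA were found in 2 (Il1rn and Il1a; 7.81% of all promoters), the NF-kB motif in 1 (Il1r1; 8.46%) and the antioxidant response element letters TGACNNNGC in 1 (Il1rl1; 12.4%). AP-1 and antioxidant element letters can share their TGA, and a match is a description of the sequence alone. In the Il1a stretch printed above, both the TATA letters and the AP-1 letters lie close to the 3′ end.

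In control cells the antagonist and the shared receptor chain were, by group mean, the most abundant members per length of transcript. Il1rn stood at 3.45 ± 2.05 CPM per kilobase of merged exons (mean ± SD, n = 3) and Il1rap at 3.37 ± 0.529. Tslp followed at 2.31 ± 1.57, Il1r1 at 2.24 ± 0.137 and Il18 at 1.86 ± 0.624, and neighbours in this order overlapped in their libraries. By their means, a gap separated these from Il33 at 0.350 ± 0.159 and Il18rap at 0.237 ± 0.183. Il1a stood at 0.197 ± 0.181 and Il1rl1 at 0.0951 ± 0.0350 CPM per kilobase. In control replicate 3, Tslp and Il1rn were at 0.193 and 0.24 times their mean in replicates 1 and 2. The order of means therefore need not hold in that library. Il1b was not detected. With KCC-07 the order was headed by Tslp at 25.1 ± 13.7 CPM per kilobase, whose lowest library lay above the highest library of Il1rn (5.50 ± 2.00), the next in order. With scramble siRNA and with siMBD2, Il1rap came first at 5.69 ± 0.106 and 6.41 ± 0.695 CPM per kilobase, and it did not overlap Il1rn, the next gene, in either group. Lengths from the longest transcript put Il1rap ahead of Il1rn in control and KCC-07 libraries, and Il18rap ahead of Il1a with KCC-07.

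**Figure D1:**
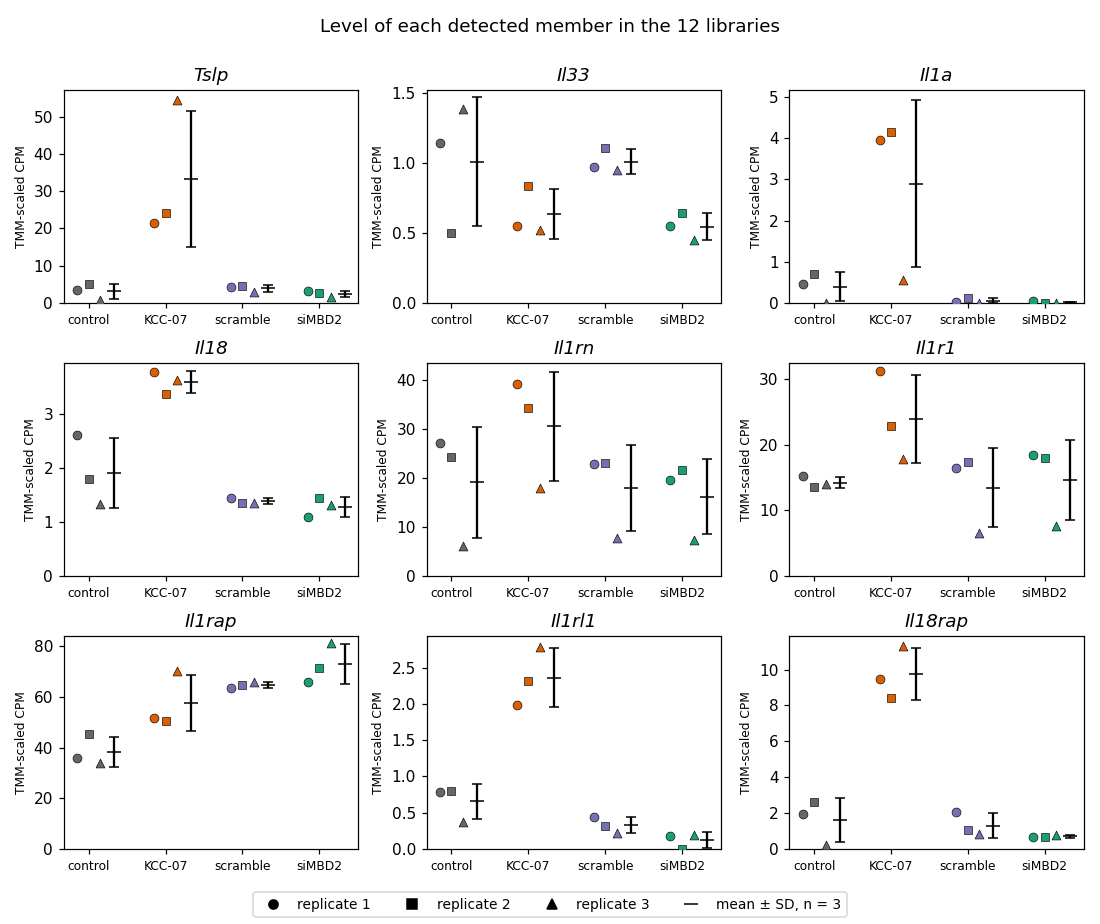
Level of each detected member (TMM-scaled CPM, linear axis from 0, one panel per gene) in the 12 libraries by group; symbols mark replicates 1 to 3 and the bar beside each group is the mean ± SD (n = 3). The KCC-07 libraries of Tslp, at 21.5 to 54.4 CPM, lie above every other library, while Il1rn is lowest in replicate 3 of all 4 groups.

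Treatment with KCC-07 asked how a compound directed at the MBD2 pathway changes these genes. Of the 9 members tested, Tslp, Il18rap and Il1rap rose and none fell, and 3.58% of all genes tested rose while 2.08% fell. In these bulk libraries a change in the share of cells that express a gene and a change in its RNA per cell cannot be told apart. The fitted log2 fold change was above 0 for 8 of the 9 and for 7731 of all 14935 genes, with medians of 0.912 and 0.015. Leaving out Il1a, which passed the filter only through KCC-07 and 2 control libraries, the median of the other 8 was 0.83. Every KCC-07 library exceeded every control library for 6 members, compared with 12.3% of all genes. With the replicate number as a block, 8 members rose (12.8% of all genes rose in that fit), and DESeq2 called 5 (12.5% of all genes in either direction). Fitting the 6 control and KCC-07 libraries alone left 0 members past the threshold, and that fit called 1 gene in all.

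Among the ligands, Tslp (chromosome 18, from 32815383 to 32819797) had the largest fold change. The control libraries held 3.48, 4.93 and 0.812 CPM (119, 148 and 28 counts) in replicates 1, 2 and 3, and the KCC-07 libraries held 21.5, 24.2 and 54.4 CPM (631, 721 and 1464 counts). The groups did not overlap, and replicate 3 was the lowest control library and the highest KCC-07 library. Tslp rose 10.9-fold (log2 fold change 3.44, SE 0.559, edgeR adjusted p = 0.00838). This call held when any single library was left out, with adjusted p up to 0.0306, but not when the 6 libraries were fitted alone (adjusted p = 0.105). Without the replicate 3 libraries of all groups the rise was 5.47-fold (log2 2.45, adjusted p = 0.000193).

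Il1a, the alarmin form of IL-1, was scarce in control cells. Its counts were 16, 21 and 0 in the control libraries and 116, 124 and 15 in the KCC-07 libraries, or 0.468, 0.699 and 0 CPM against 3.96, 4.16 and 0.558 CPM. Replicate 3 was far below replicates 1 and 2 in both groups, so the groups overlapped although each KCC-07 library was above the control library of its own number. The log2 fold change of 2.90 (SE 0.941) missed the threshold (edgeR adjusted p = 0.0884). With the replicate block it was 3.06 and passed (adjusted p = 0.0107). The fold moved with single control libraries, from 4.95 without control replicate 3 (adjusted p = 0.0756) to 12.2 without control replicate 2 (adjusted p = 0.129), and the call was gained without KCC-07 replicate 3 (adjusted p = 0.0378) or without all replicate 3 libraries (0.00191).

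Il18 had 2.61, 1.80 and 1.33 CPM in the control libraries and 3.79, 3.38 and 3.64 CPM with KCC-07. Every treated library was higher, yet the difference of 0.91 on the log2 scale (SE 0.250) fell just short of the threshold (edgeR adjusted p = 0.0537). It passed with the replicate block (adjusted p = 0.0266), by DESeq2 (0.0129) and without control replicate 1 (0.0319). Il33, the nuclear alarmin that IL1RL1 binds, was low throughout, with 1.14, 0.5 and 1.39 CPM in control and 0.546, 0.838 and 0.520 CPM with KCC-07. Its groups overlapped (log2 fold change -0.67, SE 0.382, edgeR adjusted p = 0.297), and it was the only member tested whose fitted value was below 0.

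Il1b had no count in any of the 12 libraries, which together held 360 M counts. A count of 0 allows up to 3 counts, or 0.0870 to 0.119 CPM depending on the library, and this limit covers counting error only. No difference between groups was therefore detectable at this depth.

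The antagonist gene Il1rn had 27.0, 24.2 and 6.15 CPM in control and 39.2, 34.2 and 18.0 CPM with KCC-07. As with Il1a, replicate 3 was lowest in both groups, and each KCC-07 library was above the control library of the same number. The log2 fold change of 0.67 (SE 0.567) did not pass (edgeR adjusted p = 0.493), whereas with the replicate block it was 0.83 (adjusted p = 0.0173). Without the replicate 3 libraries it was 0.52 (adjusted p = 0.00611).

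**Figure D2:**
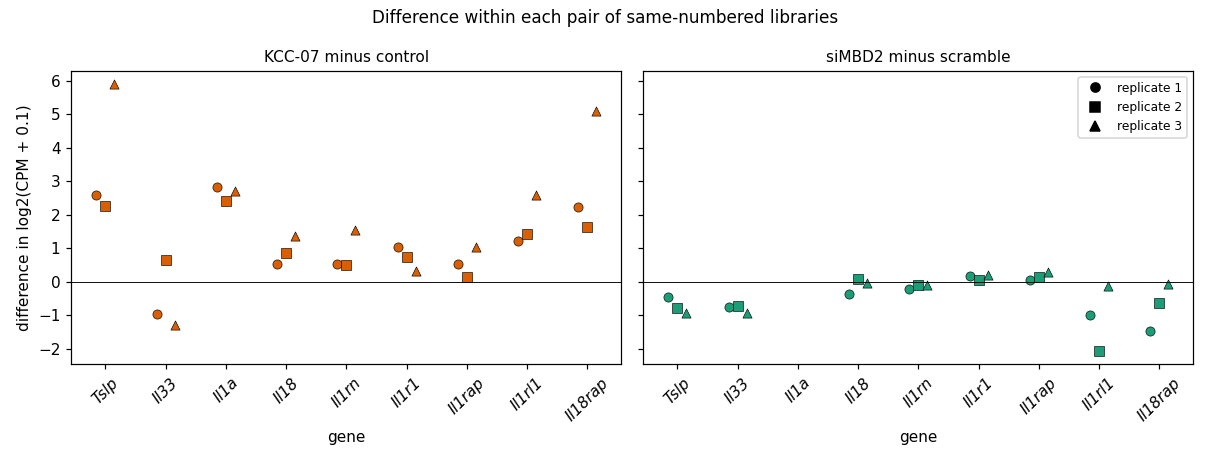
Difference in log2(CPM + 0.1) between libraries of the same replicate number for each detected member, KCC-07 minus control at left and siMBD2 minus scramble at right (Il1a, at or under 3 counts in both siRNA groups, is not drawn at right). At left every pair lies above 0 for 8 members, and replicate 3 gives 5.90 for Tslp and 5.10 for Il18rap; at right the 3 pairs of Tslp lie between -0.93 and -0.45.

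Within the same-numbered pairs, the size of the KCC-07 difference depended on the replicate for some genes and not for others. On the log2(CPM + 0.1) scale Tslp differed by 2.59, 2.27 and 5.90 in replicates 1, 2 and 3, and Il18rap by 2.23, 1.65 and 5.10. For both genes the replicate 3 pair was the widest, and in both the control library of that replicate was the lowest. Il1a differed by 2.84, 2.41 and 2.72, so its pairs were alike although its levels were not. Il1r1 ran the other way, with 1.03, 0.75 and 0.34. The only negative pair differences belonged to Il33, at -0.94 in replicate 1 and -1.27 in replicate 3, against 0.65 in replicate 2.

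Among the receptor chains, the accessory chain of the IL-18 receptor changed most. Il18rap had 1.93, 2.63 and 0.232 CPM in control libraries and 9.45, 8.44 and 11.3 CPM with KCC-07. The groups were far apart, and control replicate 3 had only 8 counts. Il18rap rose 6.10-fold (log2 2.61, SE 0.587, edgeR adjusted p = 0.0264), or 3.94-fold (log2 1.98, adjusted p = 0.00212) without the replicate 3 libraries. The call was lost without control replicate 1 (adjusted p = 0.0696) and in the fit of the 6 libraries alone (0.175, or 0.0594 with the replicate block).

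Il1rl1, the IL-33 receptor chain known from mast cells and type 2 lymphocytes, had 0.790, 0.799 and 0.377 CPM in control and 1.98, 2.31 and 2.79 CPM with KCC-07. Each KCC-07 library was more than any control library, at 58 to 75 counts against 13 to 27. The log2 fold change of 1.84 (SE 0.513) missed the threshold narrowly (edgeR adjusted p = 0.0563). It passed with the replicate block (0.0341), by DESeq2 (0.00207), with no filter on low counts (0.036) and without siMBD2 replicate 2 (0.0261). It also passed with a filter at 1 CPM in 3 libraries (0.0459), but only its KCC-07 libraries reached 1 CPM. That filter kept the gene through the group where it was high, so this pass is no separate support. Beside Il18rap and Il1rl1, both of which lymphocytes express, the T and NK cell markers summed to no more than 0.0341 CPM in any KCC-07 library and the mast cell genes Cpa3 and Ms4a2 were at 0 in all 12 libraries. The mast cell list as a whole summed to 8.08 to 18.9 CPM in control and 9.31 to 11.8 CPM with KCC-07, nearly all of it Kit. Ptprc had 6 counts over the KCC-07 libraries and 0 elsewhere, whereas Laptm5 had 5 against 12 in control. Of the macrophage markers, Fcgr1 had 27 counts with KCC-07 and 0 in control, and Adgre1 had none in any library. The macrophage list summed to 7.51 to 9.14 CPM with KCC-07 and 3.10 to 5.20 CPM in control. The part of other cells in these results was not tested.

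Il1r1, the signalling receptor for IL-1, had 15.2, 13.5 and 14 CPM in control and 31.2, 22.9 and 17.8 CPM with KCC-07. All treated libraries were higher, with the smallest gap in replicate 3. The log2 fold change of 0.75 (SE 0.375) did not pass (edgeR adjusted p = 0.238), but with the replicate block it did (adjusted p = 0.00872). Il1rap, the chain shared by the IL-1 and IL-33 receptors, had 35.7, 45.2 and 34 CPM in control and 51.8, 50.4 and 70.3 CPM with KCC-07. It rose 1.5-fold (log2 0.59, SE 0.146, edgeR adjusted p = 0.04). Of the 12 single-library omissions, 8 ended the call, with adjusted p of 0.12 without control replicate 1, 0.0559 without control replicate 3, 0.0799 without KCC-07 replicate 3, 0.0585 to 0.0672 without a scramble library and 0.0565 or 0.0654 without siMBD2 replicate 1 or 2.

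**Figure D3:**
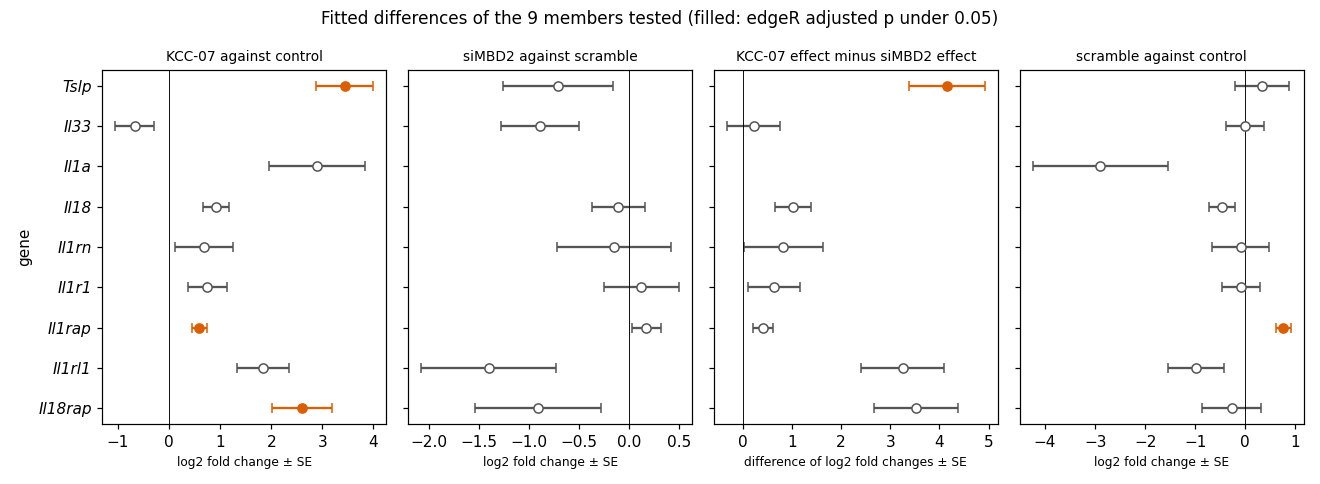
Fitted difference of each of the 9 members tested, with its SE, in 4 comparisons (log2 scale; filled points have an edgeR adjusted p under 0.05; Il1a is not drawn where siMBD2 enters because both siRNA groups were at or under 3 counts). Tslp (3.44), Il18rap (2.61) and Il1rap (0.59) are filled at left, none is filled for siMBD2, Tslp alone is filled for the difference of the effects, and Il1rap alone for scramble against control.

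Knockdown of Mbd2 asked whether loss of the targeted protein's mRNA changes the same genes. No member passed the threshold (edgeR), against 0.0402% of all genes tested, and the fit with the replicate block called 0 as well. DESeq2 also called 0, but it gave no adjusted p to Il33, Il1a and Il1rl1 and so could not call them. At an unadjusted p under 0.05 there was 1 member, Il33 (5.26% of all genes). For 3 members, Il33, Il18rap and Il1rl1, the groups were apart, with every siMBD2 library below every scramble library, compared with 11.6% of all genes. Leaving out Il1a, the median log2 fold change of 8 members was -0.43, from -1.40 to 0.17, with 2 above 0. The median over all genes was 0.00352, with 7606 of 14935 above 0.

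Tslp stood at 4.34, 4.4 and 2.88 CPM with scramble and at 3.14, 2.52 and 1.47 CPM with siMBD2. Each siMBD2 library was below the scramble library of its number, but the groups overlapped between siMBD2 replicate 1 and scramble replicate 3. The log2 fold change was -0.71 (SE 0.550, edgeR adjusted p = 1). In the fit of the 6 siRNA libraries alone with the replicate block, chosen after seeing the data, it passed (adjusted p = 0.0132). That fit called 2753 genes in all, where the fit of all 12 libraries called 6 of 14935, so the pass is not particular to Tslp. Il33 had 0.974, 1.11 and 0.947 CPM with scramble and 0.546, 0.639 and 0.446 CPM with siMBD2, 26 to 31 counts against 14 to 19. The log2 fold change of -0.89 (SE 0.389, unadjusted p = 0.0418) did not pass after adjustment (edgeR adjusted p = 0.901).

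Il18rap had 2.07, 1.03 and 0.801 CPM with scramble and 0.683, 0.639 and 0.765 CPM with siMBD2, so the gap between the nearest libraries was small (log2 fold change -0.91, SE 0.630, edgeR adjusted p = 1). Il1rl1 was near its detection limit, with 14, 8 and 6 counts with scramble and 5, 0 and 6 counts with siMBD2. The siMBD2 value in replicate 3 was 0.191 CPM against 0.219 CPM with scramble (log2 fold change over all libraries -1.40, SE 0.675, edgeR adjusted p = 0.969). Il1a had 1, 3 and 0 counts with scramble and 1, 0 and 0 counts with siMBD2, too few for a fold. Il1rap, at 63.6, 64.5 and 66.0 CPM with scramble and 65.8, 71.4 and 81.4 CPM with siMBD2, differed by 0.17 on the log2 scale (SE 0.145, edgeR adjusted p = 1). It passed only in the fit of the siRNA libraries alone with the replicate block (adjusted p = 0.0351), which called 2753 genes in all.

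For Il1rn, Il18 and Il1r1 the siRNA groups overlapped. Il1rn had 22.8, 23.1 and 7.80 CPM with scramble and 19.5, 21.5 and 7.33 CPM with siMBD2, the low value being replicate 3 in both. Il18 had 1.45, 1.35 and 1.35 CPM against 1.09, 1.45 and 1.31 CPM. Il1r1 had 16.4, 17.4 and 6.59 CPM against 18.4, 18.0 and 7.55 CPM, again with replicate 3 lowest. Their log2 fold changes were -0.15 (SE 0.570), -0.11 (SE 0.261) and 0.12 (SE 0.377), each with an edgeR adjusted p of 1. Within same-numbered pairs Il1rn was lower with siMBD2 in 3 of 3 (log2 differences of -0.22, -0.10 and -0.09) and Il1r1 higher in 3 of 3 (0.17, 0.05 and 0.19), and with the replicate block neither passed (adjusted p = 0.874 and 0.813).

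The effects of the compound and of the knockdown were then compared in 1 model. The KCC-07 effect minus the siMBD2 effect was above 0 for all 8 members that have a fold in both arms, from 0.22 for Il33 to 4.15 for Tslp. Over all genes tested, this difference was above 0 for 7513 of 14935. Tslp passed the threshold (log2 difference 4.15, SE 0.774, edgeR adjusted p = 0.0412), while 0.482% of all genes passed in that direction. With the replicate block the adjusted p was 0.0293. The call was lost without control replicate 1 (0.0799), without KCC-07 replicate 2 (0.0617), without any scramble library (0.0741 to 0.125) and without any siMBD2 library (0.102 to 0.121), and without all replicate 3 libraries the difference was 3.07 (adjusted p = 0.00119). Il18rap (3.52, SE 0.855, edgeR adjusted p = 0.0858) and Il1rl1 (3.25, SE 0.845, adjusted p = 0.107) had differences of similar size that did not pass. Il18rap passed by DESeq2 (0.00168), with no filter (0.0155), without control replicate 3 (0.0227) and without all replicate 3 libraries (0.00551), and Il1rl1 by DESeq2 (0.00369) and without the replicate 3 libraries (0.0428).

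Transfection with scramble siRNA was set against control cells, which are the same 3 control libraries that enter the KCC-07 comparison. Il1rap was the only member past the threshold, and 4.71% of all genes rose. Its scramble libraries, at 63.6 to 66.0 CPM, all exceeded the control libraries, at 34 to 45.2 CPM, a rise of 1.69-fold (log2 0.76, SE 0.146, edgeR adjusted p = 0.0109) that held without any single library (adjusted p up to 0.0478). In Il1rap the rise with scramble was thus 0.76 and the rise with KCC-07 was 0.59 on the log2 scale, both measured from the same control libraries. Il1a had 37 counts over the control libraries and 4 over the scramble libraries. Its log2 fold change was -2.90 (SE 1.35, edgeR adjusted p = 0.19), and it passed only with the shared replicate block (adjusted p = 0.0358; 6.42% of all genes fell in that fit, in which the match of replicate 3 between the arms is uncertain), without control replicate 3 (0.0444) or without all replicate 3 libraries (0.00597). Tslp differed by 0.34 (SE 0.540, adjusted p = 0.72), and its sign turned to -0.12 without control replicate 3.

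Several partners of these receptors and ligands were at or near 0 counts. The TSLP receptor chain gene Crlf2 had 2.87 to 5.50 CPM in control and 3.96 to 5.28 CPM with KCC-07, a log2 difference of 0.22 (edgeR adjusted p = 0.594), but Il7r, the other chain, had at most 4 counts in any library. Il18r1, the ligand-binding partner of Il18rap, had 1 count in each control library, 5, 7 and 30 counts in KCC-07 replicates 1, 2 and 3, and at most 3 counts in any siRNA library. Those counts were highest in the group where Il18rap was highest, and Il18r1 did not pass the filter and was not tested. The decoy receptor gene Il1r2 had at most 2 counts in any library, and the IL-36 receptor gene Il1rl2 had none. Casp1, whose product cleaves the IL-1 beta and IL-18 precursors, had 103 to 109 CPM in control and 86.3 to 91.5 CPM with KCC-07 (log2 -0.26, edgeR adjusted p = 0.182, or 0.0493 with the replicate block), whereas Pycard, the adaptor that recruits it to inflammasomes, had no count in any library.

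**Figure D4:**
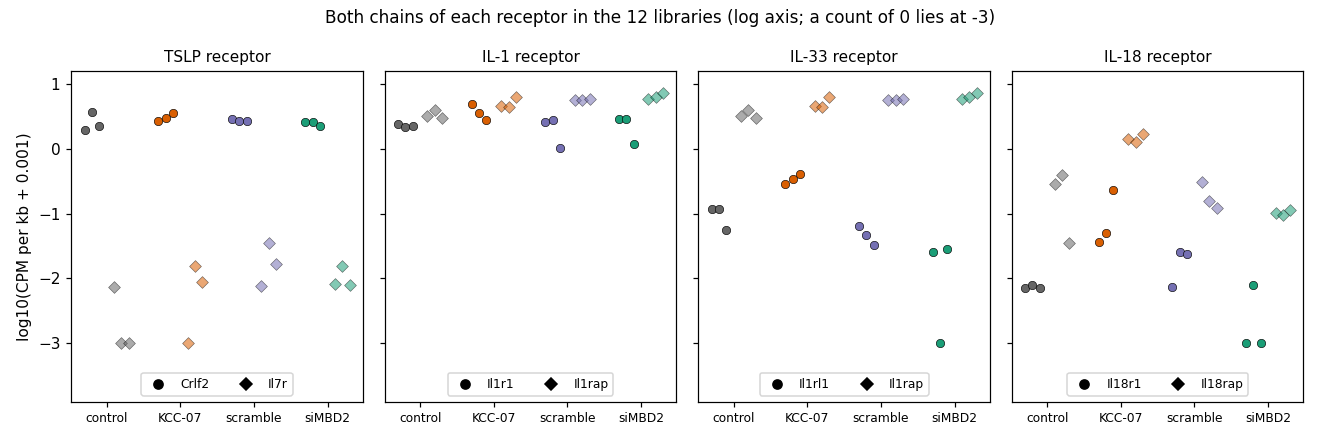
Level of both chains of 4 receptors in the 12 libraries, as log10(CPM per kilobase of merged exons + 0.001) on a log axis, with groups in colour, circles for the ligand-binding chain and diamonds for the accessory chain (Il7r for the TSLP receptor). Crlf2 and Il1rap lie above 0 on this axis in all 12 libraries, while Il7r, at no more than 4 counts, and Il18r1, at no more than 30, lie below their partners in every library.

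Other genes of the pathways were read from lists chosen from textbook knowledge. Of 29 tested genes that IL-1 is known to induce, 4 rose with KCC-07 and none fell (3.58% and 2.08% of all genes). Their median log2 fold change was 0.423, with 25 above 0, as were 7731 of all 14935 genes. With the replicate block 12 rose and 2 fell (12.8% and 9% of all genes). Mmp13, a collagenase, had 0.995, 0.833 and 0.464 CPM in control and 5.12, 4.22 and 3.12 CPM with KCC-07, a rise of 2.44 on the log2 scale (edgeR adjusted p = 0.0118). Lif, an IL-6 family cytokine gene, rose from 200, 266 and 315 CPM to 463, 486 and 417 CPM (log2 0.81, adjusted p = 0.0144), and Ptgs2, which encodes cyclooxygenase 2, rose from 61.3, 52.2 and 31.6 CPM to 118, 113 and 119 CPM (log2 1.27, adjusted p = 0.0214; 0.0607 without control replicate 2). Il6 rose from 1.02, 0.333 and 0.580 CPM to 6.55, 5.80 and 1.93 CPM (log2 2.87, adjusted p = 0.0249), a call that was lost on leaving out control replicate 2 (0.0869) or either of the first 2 KCC-07 libraries (0.0579 and 0.052).

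For the signalling chains the counts depended on the fit. Of 19 tested genes of IL-1 receptor signalling, 0 rose and 1 fell with KCC-07 (3.58% and 2.08% of all genes), with a median of 0.0278. With the replicate block 3 rose and 2 fell (12.8% and 9%), and DESeq2 called 3 (12.5% in either direction). The gene that fell in the fit without the block was Ube2n, a ubiquitin-conjugating enzyme of the TRAF6 step, at 97.0, 84.0 and 85.8 CPM in control and 68.8, 72.7 and 56.1 CPM with KCC-07 (log2 -0.43, edgeR adjusted p = 0.0303), a call that 7 of the 12 single-library omissions ended. Those were replicates 1 and 2 of the control (0.089 and 0.0572), scramble and siMBD2 groups (0.0521 to 0.0556) and the first KCC-07 library (0.0525). Of 11 tested genes of the TSLP receptor and its JAK and STAT signalling, 0 passed (edgeR), with a median of 0.172. At an unadjusted edgeR p under 0.05 there were 4 (3744 of all 14935 genes), and DESeq2 called 2 (12.5%). With the replicate block 2 rose and 1 fell (12.8% and 9%). Of 11 tested inflammasome genes only Aim2, a sensor of cytosolic DNA, passed, and with the replicate block 2 rose and 1 fell. Its control libraries held 6, 3 and 4 counts and its KCC-07 libraries 14, 32 and 77 (log2 3.44, edgeR adjusted p = 0.0188; 0.0544 without control replicate 1 and 0.0675 without control replicate 2). Without KCC-07 replicate 3 the Aim2 value was 2.53 on the log2 scale (0.0378), and without all replicate 3 libraries 2.44 (0.021). Of 8 other epithelial and type 2 cytokine genes tested, 1 fell, the IL-13-induced matrix gene Postn, from 29.4, 35.0 and 80.1 CPM to 4.54, 4.32 and 8.51 CPM (log2 -3.06, adjusted p = 0.00665). Of 6 other ligand and antagonist genes 2 were tested, Il1f5 (log2 -0.41) and Il18bp (-0.12), and of 6 other receptor genes 2 were tested, Sigirr (0.41) and Il1rapl2 (0.32), with edgeR adjusted p from 0.358 to 0.89. All 7 list genes named here lost their calls in the fit of the 6 control and KCC-07 libraries alone, which called 1 gene. The replicate block was added to that fit after seeing the data, and 394 genes were then called. Postn (edgeR adjusted p = 0.00216), Mmp13 (0.0159), Ptgs2 (0.0239) and Il6 (0.0307) passed in it. Lif (0.0507), Aim2 (0.0555) and Ube2n (0.0885) did not. With siMBD2, 0 genes of these lists passed in edgeR, with or without the replicate block. DESeq2 called 1 (0.562% of all genes), the signalling gene Stat6 of the TSLP receptor list (log2 -0.43, edgeR adjusted p = 0.212, DESeq2 adjusted p = 0.00654), also the only gene of these lists at an unadjusted edgeR p under 0.05.

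The levels of IL-1 induced genes also separated the replicates. In all 4 groups replicate 3 lay below replicates 1 and 2 for 24 of the 29 genes (82.8%), compared with 9.68% of all genes tested and 1 of the 9 members, Il1rn. Cxcl2, a neutrophil chemokine gene, had 81.3, 74.8 and 1.28 CPM in control replicates 1, 2 and 3, 172, 147 and 2.12 CPM with KCC-07, 15.9, 18.6 and 1.28 CPM with scramble and 13.6, 19.2 and 1.43 CPM with siMBD2. Tnfaip3, an NF-kB feedback gene, had 584, 442 and 38.4 CPM in control and 799, 681 and 54.5 CPM with KCC-07. Il1a followed the same order in control and KCC-07 cells, at 0 and 15 counts in replicate 3, whereas Tslp was lowest in replicate 3 of the other 3 groups and highest in replicate 3 with KCC-07, at 2.38 times the mean of replicates 1 and 2. The reason for the difference between replicates was not tested.

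The 3 genes most like Tslp across the 12 libraries, by the root mean square difference of centred log2 CPM among 11112 genes, were Gcnt2 (0.568), Cd74 (0.573) and Gstm2 (0.806), against a standard deviation of 1.72 for Tslp itself. Gcnt2 encodes a glycosyltransferase, Cd74 the invariant chain of MHC class II and Gstm2 a glutathione transferase. Cd74 had 1.49, 1.40 and 0.406 CPM in control and 6.28, 4.79 and 11.2 CPM with KCC-07, with replicate 3 lowest in control and highest with KCC-07 as in Tslp. Gcnt2 shared the low control replicate 3 (0.290 against 1.11 and 1.17 CPM) but not the high KCC-07 replicate 3 (7.03 against 6.79 and 6.84 CPM). For Il1rap, the most abundant of the other members by mean CPM, the nearest genes were the phosphatase gene Ptpn21 (0.122) and the lysosomal cholesterol-binding gene Npc2 (0.138), against a standard deviation of 0.401. Ptpn21 had 28.2 to 33.5 CPM in control, 38.6 to 58.2 CPM with KCC-07, 54.9 to 59.0 CPM with scramble and 54.1 to 59.8 CPM with siMBD2.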

How the data were processed

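RNA was sequenced from 12 libraries of PYMT-R221A cells, 3 per group. The deposited table held raw whole-number read counts per gene, not normalized by the authors. DRAGEN, DESeq2 1.44.0 and mm10 (GRCm38.p6) are named, with no role, per the submitters' processing notes. Strand setting, handling of multi-mapped reads and annotation of the counting are not given in the sources used here, so genes that overlap on opposite strands cannot be told apart. Groups came from the labels. Of the gene identifiers, 54587 matched GENCODE with their version, and no member had a near-identical copy (95% identity over 50% of the transcript).

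Genes were filtered with filterByExpr (minimum count 10, minimum total 15), scaled by TMM and fitted with edgeR 4.0.16 in R 4.3.3 (glmQLFit, glmQLFTest) with a mean for each of the 4 groups (8 residual degrees of freedom). Adjusted p-values (Benjamini-Hochberg, threshold 0.05) cover all 14935 genes of a comparison. Levels are TMM-scaled CPM, and an SE is |log2 fold change| over the root of the quasi-likelihood F. An exact permutation test of 3 against 3 cannot go below 0.1 and was not used. The scripts were tested on simulated data that had no difference between replicates, so that test does not cover the replicate 3 shift seen here.

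All 10 members are named. From each list the rule named at most 4 genes past the threshold with the smallest adjusted p in KCC-07 against control or siMBD2 against scramble, and Mbd2. It also named the 3 genes most like Tslp and most like the other member with the highest mean CPM, among non-members with a mean of at least 2 CPM, leaving out predicted gene models. A gene that met this rule is not reported here. Partner genes and marker genes named beyond this rule, with Cxcl2, Tnfaip3 and Stat6, were chosen after their values were seen. The members and lists were chosen with earlier results of these data known.

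The labels' batch tag paired libraries within each arm. Deviations of same-numbered libraries from their group means correlated across genes at 0.38, 0.40 and 0.56 (drug arm) and 0.33, 0.40 and 0.69 (siRNA arm). Libraries of different numbers were not correlated for comparison. Replicate 3 stood apart in every group, which by itself makes the other replicates deviate together. These values therefore cannot test the pairing by number, and the block rests on the labels. The block was fitted within arms (4 residual degrees of freedom) or, for scramble against control, shared by all groups (6), although replicate 3 of control and of KCC-07 carries the number 4 in its library name and that of the siRNA groups the number 3, so the shared block, and a call that rests on it, is uncertain. No replicate pair was identical, and chi-square per degree of freedom was at least 3.32. The labels call the replicates biological but name no separate cultures, so p-values measure the spread between these libraries. Alternatives were DESeq2 1.42.0 (Wald test, and its size factors), no filter, at least 1 CPM in 3 libraries as the filter, the compared groups alone, the replicate block, each library left out, replicate 3 left out, and stricter thresholds. The compared groups alone with the replicate block were added after seeing the data.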

Additional observations from a re-analysis of the deposited data

Results flagged for a closer look

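The KCC-07 effect on Tslp differed from the siMBD2 effect by 4.15 on the log2 scale (edgeR adjusted p = 0.0412), and this is the only member for which the test of the difference between the arms passed. The KCC-07 libraries were all above their controls, in 3 of 3 same-numbered pairs, and the siMBD2 libraries were below scramble in 3 of 3 pairs. Leaving out single libraries gave adjusted p from 0.0227 to 0.125, and 8 of 12 such omissions ended the call.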

How the results depend on the processing

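Of the members, 3 passed for KCC-07 against control. This count was 5 with no filter, 8 with the replicate block, 0 with the groups compared alone and 2 with the groups alone and the block. It was 5 by DESeq2, 6 without the replicate 3 libraries and 1 at an adjusted p under 0.01. Over all genes the 844 calls became 3251 with the replicate block, 1 with the groups alone, 394 with the groups alone and the block, 1871 by DESeq2, 3833 without replicate 3, 145 at an adjusted p under 0.01, 255 with a 2-fold minimum and 391 to 2134 when single libraries were left out. For siMBD2 the count of members was 0, and 2 with the groups alone and the block. The 6 calls over all genes became 112 with the replicate block, 171 with the groups alone, 2753 with both, 84 by DESeq2, 162 without replicate 3, 3 at the stricter p, 1 with the 2-fold minimum and 2 to 32 leaving out single libraries. For the difference of the effects 1 member passed, against 2 with no filter, 3 by DESeq2, 5 without replicate 3, 0 at the stricter p and 0 to 2 leaving out single libraries, and the 98 calls over all genes became 176 with no filter, 1030 with the block, 617 by DESeq2, 1589 without replicate 3, 10 at the stricter p, 62 with the 2-fold minimum and 11 to 351 leaving out single libraries. For scramble against control 1 member passed, against 2 with the replicate block, 2 without replicate 3, 0 at the stricter p, 0 with the 2-fold minimum and 1 to 2 leaving out single libraries. The 1313 calls over all genes became 2062 with the block, 332 with the groups alone and the block, 2299 by DESeq2, 6172 without replicate 3, 267 at the stricter p, 284 with the 2-fold minimum and 316 to 3125 leaving out single libraries. The cause of these shifts was not tested.

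Signs turned only for values near 0 that no test called. For scramble against control, leaving out single libraries gave log2 fold changes of -0.12 to 0.85 for Tslp, -0.33 to 0.29 for Il33, -0.52 to 0.27 for Il1rn, -0.80 to 0.28 for Il18rap and -0.31 to 0.25 for Il1r1. Without the replicate 3 libraries Il33 was 0.33 and Il1r1 0.24, and with the groups alone and the block Il33 was 0.079, Il1rn 0.00633 and Il18rap 0.0177. Leaving out single libraries gave -0.51 to 0.20 for Il1rn and -0.20 to 0.44 for Il1r1 with siMBD2, and -0.10 to 0.52 for Il33 in the difference of the effects. With KCC-07 no member changed sign under any alternative run. The replicate block changed no other call of a member than those given beside the results. Depth limits Il1b, Il1a in the siRNA groups and Il1rl1 with siMBD2, where libraries held 6 counts or fewer.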
